A study of Mus musculus with 48 samples.

Results

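The 10 genes described here carry, transmit or restrain the signal of transforming growth factor-β (TGF-β). The set was made by gene name, with earlier results of these data already known. It holds the ligands *Tgfb1*, *Tgfb2* and *Tgfb3*, the receptors *Tgfbr1* and *Tgfbr2*, the signal transducer *Smad3*, the inhibitors *Smad7* and *Bambi*, the repressor *Tgif1* and the secreted target *Tgfbi*. All 10 were found among the 46983 genes listed for the libraries and all 10 were among the 19970 genes that passed the filter on low counts. Bulk 3′ RNA-seq had been made from the brain of 3-month-old male C57Black/6 mice, in 48 libraries of 11 groups. The methods of the study name the injured cortical region as the tissue, while its results describe almost the whole hemisphere on the injured side. In the MCAO groups the middle cerebral artery was permanently occluded by coagulation and transection, and sham mice had the same operation without the coagulation. Intact cortex of mice of the same age gave a control group of 4 libraries. The tissue was taken at 3 h, 12 h, 24 h, day 3 and day 7, with 4 sham libraries at each time and 5 MCAO libraries, or 4 at 24 h. No group carried a transgene or a drug. A piece held injured together with uninjured brain tissue, and the share of injured tissue in each library is not given in the sources used here. The study counts its bulk replicates in mice, while the labels give the libraries of a group only a letter and tie no letter to an animal. The p-values measure the spread between these libraries. In such bulk tissue, more cells of a type and more RNA per cell cannot be told apart.

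TGF-β is secreted as a latent complex that has to be opened before it binds. The active ligand joins TGFBR2 and TGFBR1, TGFBR1 then phosphorylates SMAD2 and SMAD3, and these enter the nucleus with SMAD4 to regulate target genes, while SMAD7, the decoy receptor BAMBI and the corepressor TGIF1 limit the response. In the brain the pathway is known for keeping microglia in their resting state and, after injury, for scar formation and the deposition of matrix.

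The genes had few reads in these libraries, except *Smad3*, *Tgfb2* and *Smad7*, which had at least 24 reads in each library. Gene coordinates are those of Gencode vM21 on GRCm38, and all 10 are protein-coding genes. *Smad3* (chr9:63646767-63757994, − strand) had 106 to 301 reads per library and *Smad7* (chr18:75367529-75395935, + strand) had 24 to 82. *Bambi* (chr18:3507923-3516404, + strand) had 0 to 16 reads, with 0 in 4 libraries. A library with 0 reads can still hold up to the 3 reads that a count of 0 allows, and this limit and the intervals below cover counting error only.

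*Tgfb1* (chr7:25687002-25705077, + strand) had 0 to 93 reads per library with a median of 3.5. *Tgfb2* (chr1:186622792-186705989, − strand) had 31 to 103 reads, and *Tgfb3* (chr12:86056745-86079041, − strand) had 3 to 39. Both are overlapped on the opposite strand by other annotated genes, *Tgfb2* by Gm26169 and Gm29491 and *Tgfb3* by *Ttll5*, Gm37804 and Gm48008. Whether the counting used strand is not given in the sources used here, so reads of these neighbours cannot be told apart from theirs. The receptor genes *Tgfbr1* (chr4:47353222-47414931, + strand) and *Tgfbr2* (chr9:116084293-116175360, − strand) had 8 to 84 and 2 to 105 reads. *Tgif1* (chr17:70844205-70853546, − strand) had 0 to 52 reads and *Tgfbi* (chr13:56609523-56639562, + strand) 0 to 195. Levels are given as TMM-normalised CPM (reads of the gene scaled to the reads of all genes in the library), in the order of the replicate letters A to D or E.

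The promoters of the 4 genes that rose in at least 1 comparison below, *Tgfb1*, *Tgfbr2*, *Tgif1* and *Tgfbi*, are printed because these are the members that rose, so that their starts can be compared. Each is the RefSeq sequence on GRCm38.p6 from 250 bases before to 50 bases after the annotated start, read 5′ to 3′ on the strand of the gene. Capitals mark the SMAD box (CAGAC on either strand) and the GC box (GGGCGG on either strand), and no matches overlapped in these windows.
Tgfb1, chr7:25686752-25687051, + strand: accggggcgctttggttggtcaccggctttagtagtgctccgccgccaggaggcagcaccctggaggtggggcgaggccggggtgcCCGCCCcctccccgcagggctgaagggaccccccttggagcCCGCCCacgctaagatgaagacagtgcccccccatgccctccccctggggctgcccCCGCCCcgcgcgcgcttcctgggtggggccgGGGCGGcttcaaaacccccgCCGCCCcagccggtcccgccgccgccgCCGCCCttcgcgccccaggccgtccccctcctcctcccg
Tgfbr2, chr9:116175314-116175613, − strand: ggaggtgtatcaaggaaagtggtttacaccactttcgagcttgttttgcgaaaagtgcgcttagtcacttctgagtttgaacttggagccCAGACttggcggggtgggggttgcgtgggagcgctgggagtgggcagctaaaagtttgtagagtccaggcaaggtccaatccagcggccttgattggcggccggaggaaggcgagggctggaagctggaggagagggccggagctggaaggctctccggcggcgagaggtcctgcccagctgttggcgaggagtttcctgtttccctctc
Tgif1, chr17:70853483-70853782, − strand: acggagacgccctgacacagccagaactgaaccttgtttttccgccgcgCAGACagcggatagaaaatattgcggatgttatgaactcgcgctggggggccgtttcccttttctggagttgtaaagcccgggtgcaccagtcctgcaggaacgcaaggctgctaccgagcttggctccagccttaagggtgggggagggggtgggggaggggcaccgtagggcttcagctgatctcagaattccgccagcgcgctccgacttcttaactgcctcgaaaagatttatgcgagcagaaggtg
Tgfbi, chr13:56609336-56609635, + strand: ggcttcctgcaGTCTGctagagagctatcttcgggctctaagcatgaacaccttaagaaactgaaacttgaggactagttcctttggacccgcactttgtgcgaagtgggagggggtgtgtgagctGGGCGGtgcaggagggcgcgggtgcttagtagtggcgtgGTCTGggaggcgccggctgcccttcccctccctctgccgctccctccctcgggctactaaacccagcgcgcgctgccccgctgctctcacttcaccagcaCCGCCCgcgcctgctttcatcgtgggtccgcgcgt
The window of *Tgfb1* held 6 GC boxes and 0 SMAD boxes and was 77.0% G and C. Those of *Tgfbr2* and *Tgif1* held 1 SMAD box each and 0 GC boxes, and that of *Tgfbi* held 2 of each. Of the 32851 promoters in the same table, 49.59% held at least 1 SMAD box and 35.66% at least 1 GC box, so both matches are common in windows of this length. The AP-1 letters TGANTCA were in 7.81% of promoters and in none of these 4. The start shown for *Tgif1* is 1 of 5 in the table. The promoters of the other members were not printed.

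How each gene changed after the occlusion was asked by setting MCAO against sham at the same time. A gene is called when the edgeR quasi-likelihood test gave a Benjamini-Hochberg adjusted p under 0.01 over all genes tested and an absolute log2 fold change over 0.58. On day 3, 3 of the 10 genes were called, all higher after MCAO (*Tgfb1*, *Tgif1*, *Tgfbi*), where 4.02% of all genes tested were called. On day 7, 2 of the 10 were called, both higher (*Tgfbr2*, *Tgif1*), against 3.5% of all genes. At 3 h, 12 h and 24 h edgeR called 0 of the 10, against 0.11%, 0.411% and 0.0901% of all genes. DESeq2 also called 0 of the 10 at these times, and 0, 4 and 4 of them had an unadjusted edgeR p under 0.05. The median log2 fold change of the 10 genes was 0.23 at 3 h, 0.04 at 12 h, 0.44 at 24 h, 0.89 on day 3 and 1.57 on day 7, beside medians over all genes of 0.00, 0.01, 0.02, 0.01 and 0.06. Every MCAO library lay above every sham library for 3 of the 10 genes on day 3 (*Tgfbr2*, *Tgif1*, *Bambi*), as for 4.33% of all genes, and for 5 on day 7 (*Tgfb1*, *Tgfb2*, *Tgfbr1*, *Tgfbr2*, *Tgif1*), as for 5.38% of all genes. That share over all genes was not computed for the earlier times, for lower values or against the control. Separations named for those below only describe the libraries and cannot be set against a background. When each fit held only the 2 groups compared and not all 11, *Tgfbi* remained called on day 3 and 0 of the 10 genes were called on day 7, with fold changes that hardly moved.

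**Figure D1:**
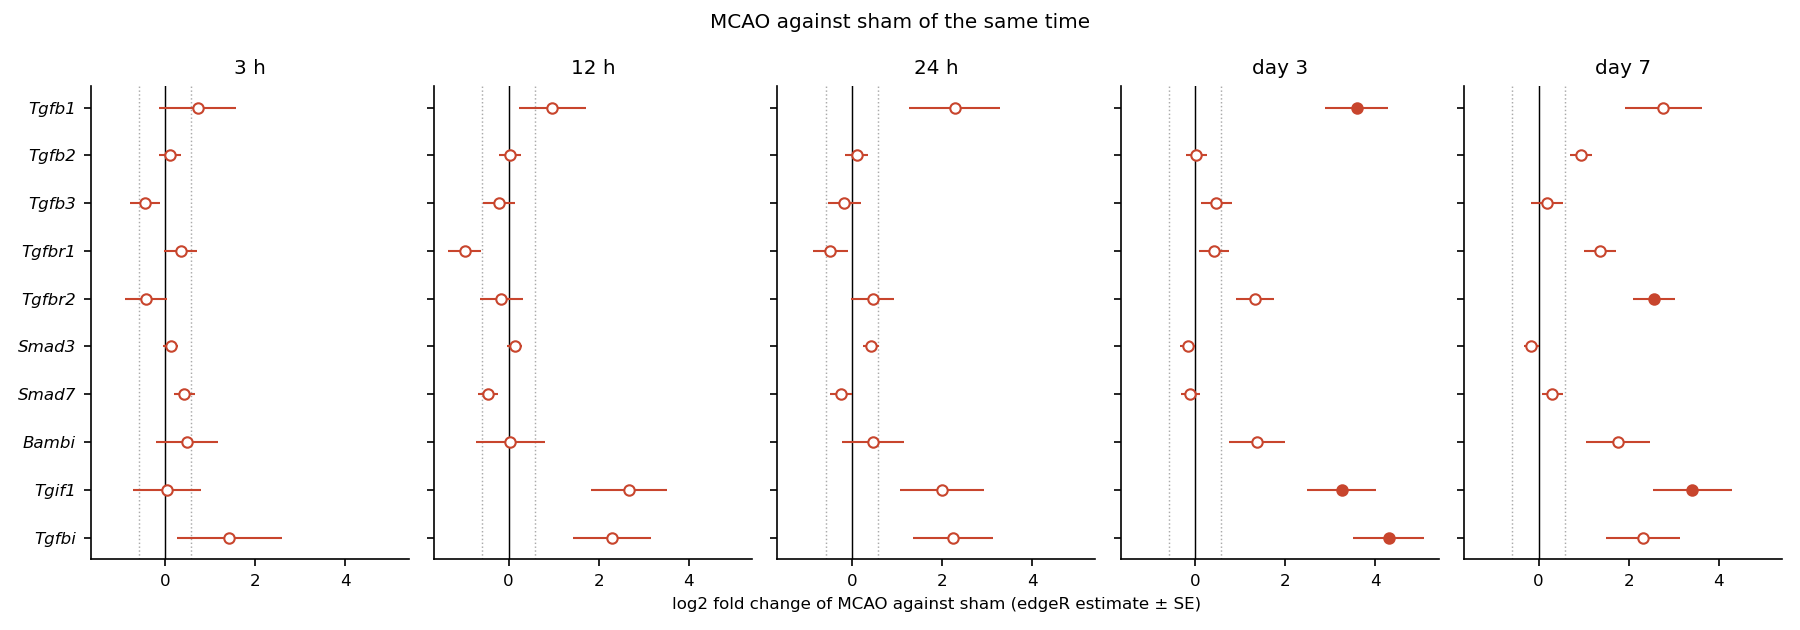
Differences by gene and time: the log2 fold change of MCAO against sham (x axis, edgeR estimate with its standard error) for the 10 genes at the 5 times, with filled circles for called genes and dotted lines at ±0.58. *Tgfb1*, *Tgif1* and *Tgfbi* are filled on day 3 and *Tgfbr2* and *Tgif1* on day 7, while *Smad3* stays between −0.16 and 0.42 throughout.

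Among the ligands, *Tgfb1*, the main TGF-β of immune cells, showed the steepest rise. On day 3 its level after MCAO was 0.534, 8.59, 36.5, 6.35 and 41.0 CPM in libraries A to E, from 1, 19, 73, 13 and 93 reads, and in sham it was 2.18, 2.31, 0.467 and 0.937 CPM. Libraries C and E were by far the highest and library A lay inside the sham range, so the groups overlapped. The fitted log2 fold change was 3.58 (SE 0.71, edgeR adjusted p = 3.61e-04). The pooled ratio was 12.6, with an exact 95% interval for counting error of 7.32 to 23.4. It sets the summed reads of a group over its summed TMM-scaled library sizes against those of the other group. The call was lost when only the day 3 groups were fitted (adjusted p = 0.0243). On day 7 the 5 MCAO libraries had 1.73, 4.07, 15.5, 3.36 and 3.13 CPM and the shams 0.572, 0.933, 0.545 and 0.912 CPM. The groups did not overlap, yet the difference was not called (log2 fold change 2.77, SE 0.86, edgeR adjusted p = 0.0255), and without MCAO library C it was 1.95 (adjusted p = 0.189). The shams held 1 or 2 reads each, and the pooled ratio was 7.14, with a 95% interval of 3.05 to 20.4. At 24 h the MCAO libraries had 1.275, 3.74, 3.81 and 3.67 CPM and the shams 1.19, 0.632, 0 and 0.524 CPM. All 4 MCAO libraries lay above all 4 shams there, by a margin that was thin for library A, and the difference was not called (log2 fold change 2.28, SE 1.02, edgeR adjusted p = 0.465). Over the 11 groups, the mean was highest on day 3 after MCAO at 18.6 ± 18.7 CPM (SD, n = 5), next on day 7 after MCAO at 5.55 ± 5.61 CPM, and 0.586 to 1.94 CPM in the control and sham groups. Each group overlapped its neighbour in that order.

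*Tgfb2*, a ligand of neurons and astrocytes, kept nearly the same level until day 7. Its means in the 9 groups up to day 3 were 26.8 to 33.4 CPM. On day 7 the MCAO libraries had 32.3, 41.7, 48.8, 49.4 and 30.7 CPM, and the shams 18.3, 29.9, 16.9 and 19.6 CPM. The lowest MCAO library lay just above the highest sham, and the difference narrowly missed the threshold (log2 fold change 0.93, SE 0.25, edgeR adjusted p = 0.0107). DESeq2 called it (adjusted p = 0.00288), as did the fits with filterByExpr (0.00735) and without a filter (0.00953), and it was also called without MCAO library A (0.00889), without MCAO library E (0.00816) or without sham library B (0.00624). The day 7 MCAO mean of 40.6 ± 8.85 CPM was the highest of the 11 groups, and the day 7 sham mean of 21.2 ± 5.90 CPM was the lowest. Against the control the difference was smaller (log2 fold change 0.58, SE 0.24, edgeR adjusted p = 0.214). *Tgfb3*, the third isoform, gave no call: its group means ran from 7.61 CPM (MCAO at 12 h) to 12.8 CPM (sham at 3 h), and neighbouring groups in that order overlapped. Its MCAO against sham log2 fold changes were −0.45 at 3 h, −0.21 at 12 h, −0.17 at 24 h, 0.46 on day 3 and 0.19 on day 7, with standard errors of 0.34 to 0.36.

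**Figure D2:**
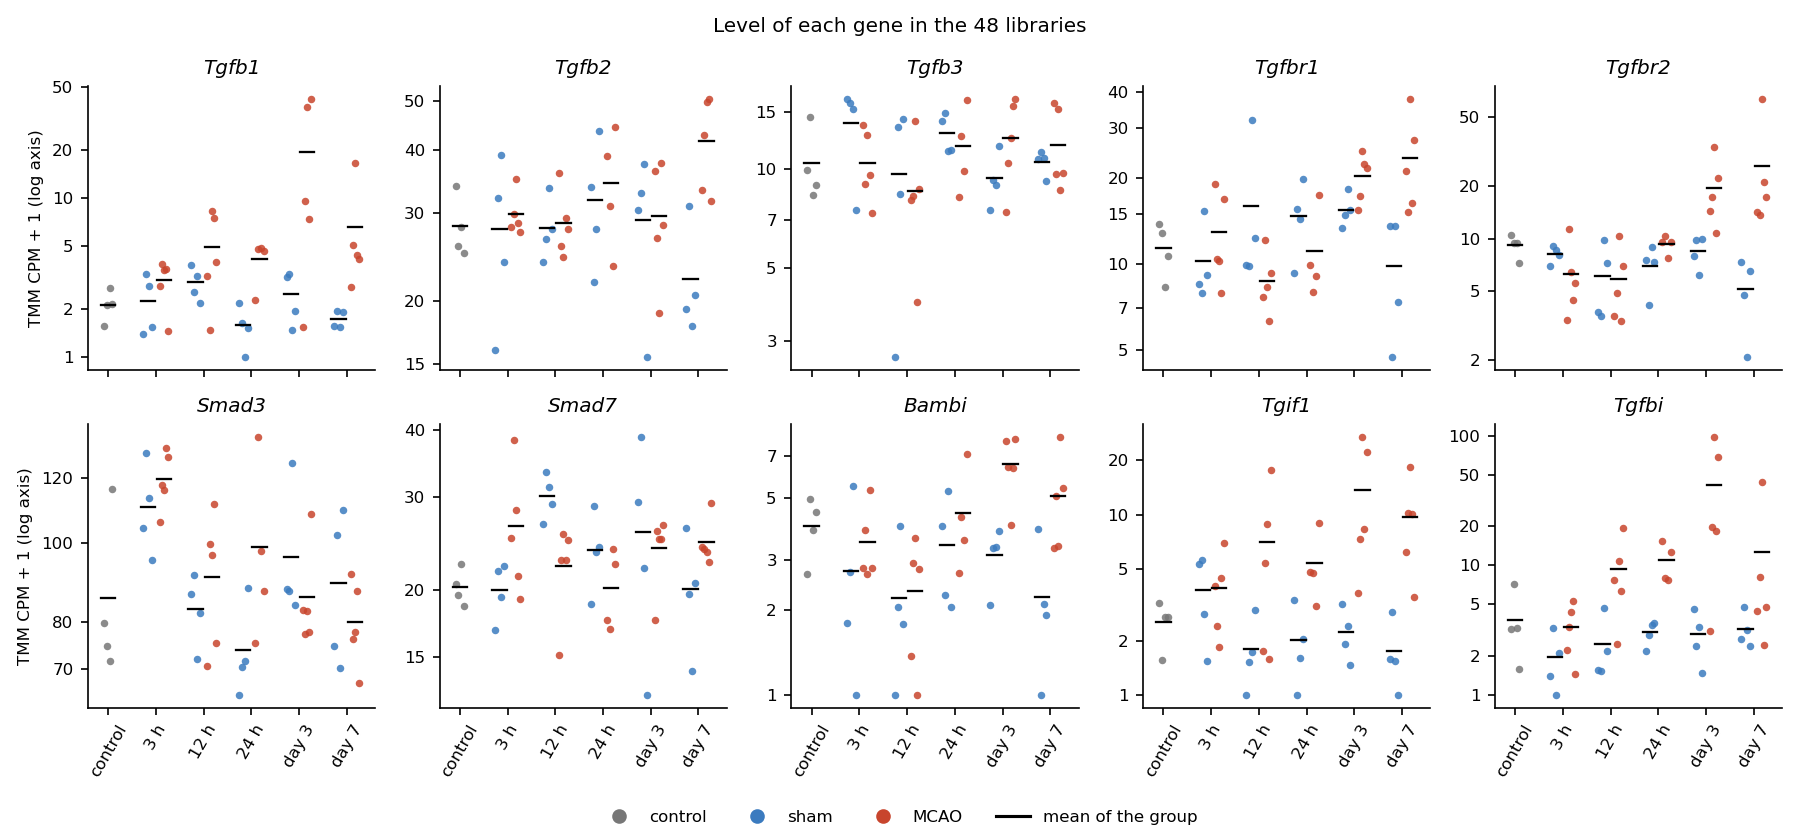
Level of each gene by library: TMM CPM + 1 on a log axis for the control (grey), sham (blue) and MCAO (red) libraries at each time, 1 point per library, with black bars for group means. The day 3 MCAO points of *Tgfb1* and *Tgfbi* run from inside the sham range up to 41.0 and 97.4 CPM, and the day 7 MCAO points of *Tgfb2*, *Tgfbr1* and *Tgfbr2* all lie above their shams.

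Of the receptors, *Tgfbr2*, which binds the ligand first, was called on day 7. The MCAO libraries had 13.3, 12.7, 62.5, 20.15 and 16.3 CPM, and the shams 6.29, 3.73, 1.09 and 5.47 CPM. Every MCAO library was above every sham, and library C was about as high as the other 4 MCAO libraries together. The log2 fold change was 2.56 (SE 0.46, edgeR adjusted p = 2.16e-04). Without library C it was 1.89 and still called (adjusted p = 0.00453), while it was not called when only the day 7 groups were fitted (adjusted p = 0.0127). The day 7 shams were low: their mean was 4.15 ± 2.30 CPM (SD, n = 4) beside 8.17 ± 1.35 CPM in the control, and against the control the day 7 log2 fold change was 1.60 (SE 0.42, edgeR adjusted p = 0.0201), which was not called and was 0.93 without MCAO library C (adjusted p = 0.321). DESeq2 (adjusted p = 0.00543), the fit without a filter (0.00714) and the fit without MCAO library B (0.00964) called it against the control. On day 3, *Tgfbr2* was 13.35, 16.3, 32.5, 9.77 and 21.15 CPM after MCAO and 6.89, 8.77, 5.14 and 8.90 CPM in sham. Again all MCAO libraries were above all shams, with library D closest to them, and the difference was not called (log2 fold change 1.32, SE 0.42, edgeR adjusted p = 0.0365). With day 3 MCAO library A and day 7 MCAO library C left out, an alternative chosen after the data had been seen, the day 3 value was 1.41 and was called (adjusted p = 0.00613). At 3 h, 12 h and 24 h the log2 fold changes were −0.43, −0.16 and 0.46. Of the 10 genes, *Tgfbr2* alone was called when the mean of the day 3 and day 7 differences was set against the mean of the 3 h and 12 h differences (2.23 on the log2 scale, SE 0.45, edgeR adjusted p = 0.00214), where 1.12% of all genes were called.

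*Tgfbr1*, the kinase that passes the signal on, had an uncalled difference of opposite sign at 12 h and on day 7. At 12 h it was 6.675, 11.2, 7.30, 5.29 and 8.34 CPM after MCAO and 8.94, 8.86, 31.05 and 11.3 CPM in sham. The MCAO libraries were mostly below the shams, of which library C stood far above the rest (log2 fold change −0.98, SE 0.36, edgeR adjusted p = 0.164). Without that sham library it was −0.33 (adjusted p = 0.76). On day 7 it was 20.2, 14.25, 36.9, 15.35 and 26.3 CPM after MCAO and 12.6, 3.73, 12.5 and 6.39 CPM in sham. The groups did not overlap, and the difference narrowly missed the threshold (log2 fold change 1.37, SE 0.36, edgeR adjusted p = 0.0106). It was called with DESeq2 size factors in edgeR (adjusted p = 0.00982), by DESeq2 (0.00265), with filterByExpr (0.00777) and without a filter (0.00563). It was also called without MCAO library B (0.00703), MCAO library D (0.00863) or sham library C (0.00871). On day 3 the log2 fold change was 0.42 (SE 0.34), with 19.4 ± 3.93 CPM after MCAO (SD, n = 5) and 14.5 ± 2.07 CPM in sham (SD, n = 4). The change of the difference from 3 h and 12 h to day 3 and day 7 was 1.21 (SE 0.35, edgeR adjusted p = 0.0376), also not called.

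*Smad3*, the transducer that carries the signal to the nucleus, was called in none of the comparisons although it had the most reads of the 10. Its MCAO against sham log2 fold changes were 0.12, 0.13, 0.42, −0.16 and −0.16 at the 5 times, each with a standard error of 0.17 or 0.18. The 24 h difference had the lowest p of these (edgeR adjusted p = 0.465), with 74.35, 133.7, 96.6 and 86.2 CPM after MCAO and 64.1, 69.5, 70.7 and 87.0 CPM in sham, 2 of the MCAO libraries being above all shams. The 3 h groups had the highest means, 118.5 ± 9.81 CPM after MCAO and 109.5 ± 14.3 CPM in sham, beside 84.55 ± 20.8 CPM in the control. Neither 3 h group was called against the control (log2 fold changes 0.49 and 0.37, edgeR adjusted p = 0.25 and 1).

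Of the inhibitors, *Smad7*, which is itself switched on by TGF-β and blocks the receptor, was called in no comparison. At 12 h it was 14.1, 21.8, 24.5, 21.8 and 23.8 CPM after MCAO and 25.7, 32.3, 30.3 and 28.05 CPM in sham. All 5 MCAO libraries lay below all 4 shams (log2 fold change −0.47, SE 0.22, edgeR adjusted p = 0.314). The 12 h shams also all lay above the control libraries, which had 17.7 to 21.45 CPM (log2 fold change of sham against control 0.59, SE 0.24, edgeR adjusted p = 0.908). At 3 h, 24 h, day 3 and day 7 the *Smad7* log2 fold changes of MCAO against sham were 0.42, −0.25, −0.11 and 0.31. *Bambi*, a decoy receptor without a kinase, was 6.94, 5.42, 3.00, 5.37 and 7.05 CPM after MCAO on day 3 and 1.09, 2.31, 2.34 and 2.81 CPM in sham. The groups did not overlap, though library C was barely above the highest sham, and with 6 to 16 and 3 to 6 reads a library the difference was not called (log2 fold change 1.38, SE 0.62, edgeR adjusted p = 0.169). On day 7 the log2 fold change was 1.77 (SE 0.71, edgeR adjusted p = 0.1), with 1 sham at 0 reads and overlapping groups.

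*Tgif1*, a homeodomain repressor of SMAD targets, was called on both late days. On day 3 it was 2.67, 6.33, 25.97, 7.325 and 21.15 CPM after MCAO and 2.18, 0.923, 1.401 and 0.469 CPM in sham. The groups did not overlap, library A being close to the highest sham and libraries C and E far above the rest. The log2 fold change was 3.25 (SE 0.76, edgeR adjusted p = 0.00264), and the pooled ratio, from 134 against 12 reads, was 9.87 (95% interval 5.47 to 19.6). The call was lost without MCAO library C (log2 fold change 2.83, adjusted p = 0.0183), MCAO library E (0.0121) or sham libraries B (0.0141), C (0.0109) or D (0.0177), with the replicate letter as a block (2.84, 0.0109) and when only the day 3 groups were fitted (0.011). On day 7 it was 5.19, 9.16, 17.25, 9.12 and 2.505 CPM after MCAO and 0.572, 1.87, 0.545 and 0 CPM in sham. All MCAO libraries were above all shams, with 4 to 29 reads against 0 to 4. The log2 fold change was 3.42 (SE 0.87, edgeR adjusted p = 0.00645), and the pooled ratio, from 79 against 6 reads, was 11.5 (95% interval 5.06 to 32.3). That call was lost without MCAO library C (log2 fold change 3.02, adjusted p = 0.0316), MCAO library D (0.0107) or sham libraries A (0.0215), C (0.0189) or D (2.97, 0.0449), and when only the day 7 groups were fitted (0.0119). Without sham library B, which held 4 of the 6 sham reads, it was 4.41. At 12 h the 5 MCAO libraries ran from 0.588 to 16.7 CPM with a median of 4.37, and the shams from 0 to 1.95 CPM, and the difference was not called (log2 fold change 2.67, SE 0.85, edgeR adjusted p = 0.0893).

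*Tgfbi*, a secreted matrix protein named for its induction by TGF-β, had the largest fold change of the 10. On day 3 it was 2.135, 19.0, 97.4, 17.6 and 67.4 CPM after MCAO and 3.63, 1.385, 2.34 and 0.469 CPM in sham. Libraries C and E were again the highest, and library A again lay inside the sham range. The log2 fold change was 4.29 (SE 0.79, edgeR adjusted p = 1.62e-04), and without library C it was 3.68 (adjusted p = 0.00183). The pooled ratio, from 430 against 19 reads, was 20.01 (95% interval 12.65 to 33.6). On day 7 it was 3.46, 7.125, 42.8, 1.44 and 3.76 CPM after MCAO and 1.72, 3.73, 2.18 and 1.37 CPM in sham. Here library C alone stood far above the rest and libraries A and D were within the sham range, and the difference was not called (log2 fold change 2.32, SE 0.83, edgeR adjusted p = 0.0629). Without library C it was 0.78 (adjusted p = 0.627). At 24 h it was 14.45, 7.01, 6.78 and 11.6 CPM after MCAO and 1.19, 1.90, 2.44 and 2.62 CPM in sham. The groups did not overlap and the difference was not called (log2 fold change 2.24, SE 0.89, edgeR adjusted p = 0.394). At 12 h, 4 of 5 MCAO libraries were above all shams (log2 fold change 2.30, SE 0.87, edgeR adjusted p = 0.176).

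Against the control, which is shared by all 5 times, *Tgfb1*, *Tgif1* and *Tgfbi* were again called on day 3, where 3.1% of all genes were called. The log2 fold changes were 3.98 for *Tgfb1* (SE 0.77, edgeR adjusted p = 3.50e-04), 2.99 for *Tgif1* (SE 0.77, adjusted p = 0.00859) and 3.83 for *Tgfbi* (SE 0.78, adjusted p = 8.10e-04). The control held 8 reads of *Tgfb1* in all, 11 of *Tgif1* and 20 of *Tgfbi*, and the pooled ratios were 17.0 (95% interval 8.44 to 39.8), 8.305 (4.50 to 17.0) and 14.7 (9.37 to 24.2). In day 3 library A, *Tgfb1* was below every control library and *Tgfbi* within their range, while *Tgif1* lay above them in all 5 libraries. Day 3 library A and control library A each held 1 read of *Tgfb1*, so their order rests on library size. Without MCAO library C the value of *Tgfbi* was 3.22 and without control library B 4.54, both called. None of the 3 was called when only the control and day 3 MCAO were fitted (adjusted p = 0.0257, 0.0207 and 0.0212). The call of *Tgif1* was also lost under spike-in scaling (0.0167), with the replicate letter as a block (2.60, 0.0287), without MCAO library C (0.0486) or E (0.0341) and without control library A (0.0232), B (0.0445), C (0.0285) or D (0.0295). At 3 h, 12 h, 24 h and day 7 edgeR called 0 of the 10 against the control, where 0.13%, 0.856%, 0.28% and 1.5% of all genes were called. There 1, 2, 1 and 6 of the 10 had an unadjusted p under 0.05, and DESeq2 called 0, 0, 0 and 1. Sham against control gave 0 of the 10 at each time by edgeR and DESeq2, beside 0% of all genes at 3 h, day 3 and day 7, 0.0351% at 12 h and 0.01% at 24 h. An unadjusted p under 0.05 was seen for 1 gene at 3 h (*Smad3*), 1 at 12 h (*Smad7*) and 0 at the other times.

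Whether the MCAO against sham difference changed between neighbouring times was tested as an interaction. EdgeR and DESeq2 called 0 of the 10 from 3 h to 12 h, 12 h to 24 h, 24 h to day 3 and day 3 to day 7, where 0.01%, 0.01%, 0.01% and 0% of all genes were called. An unadjusted p under 0.05 was seen for 3, 0, 1 and 2 of the genes. From 3 h to 12 h these were *Tgif1* (2.64 on the log2 scale, SE 1.15), *Tgfbr1* (−1.32, SE 0.51) and *Smad7* (−0.89, SE 0.32), with edgeR adjusted p = 0.681, 0.643 and 0.598. From 24 h to day 3 it was *Smad3* (−0.59, SE 0.24, edgeR adjusted p = 0.492). From day 3 to day 7 they were *Tgfb2* (0.91, SE 0.34) and *Tgfbr2* (1.24, SE 0.62), with edgeR adjusted p = 0.185 and 0.304. Day 3 and day 7 were not shown to differ for any of the 10, although *Tgfb1* and *Tgfbi* were called on day 3 and not on day 7.

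**Figure D3:**
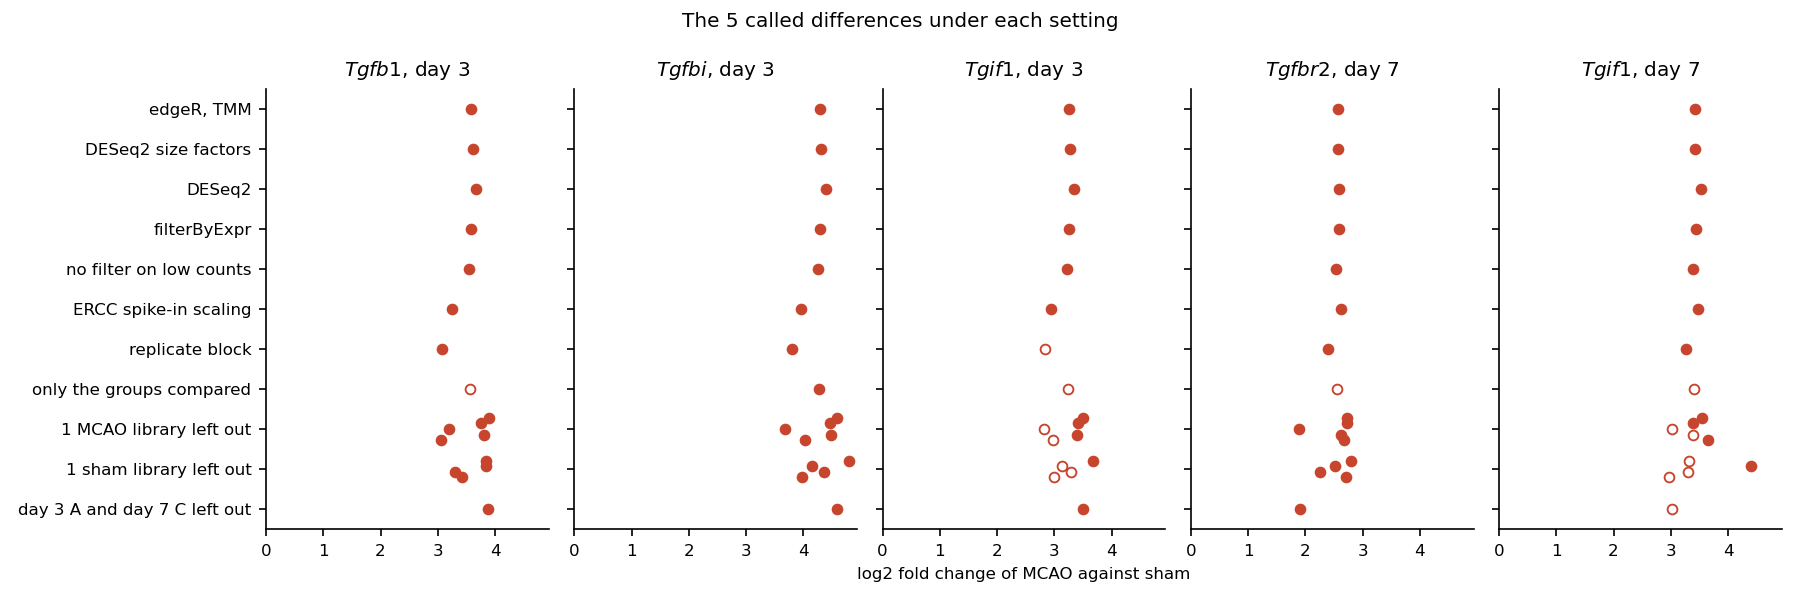
The 5 called differences under each way of processing: log2 fold change of MCAO against sham (x axis) for each setting (y axis), filled where the adjusted p was under 0.01. The points run from 1.89 (*Tgfbr2* without day 7 MCAO library C) to 4.80 (*Tgfbi* without day 3 sham library A), none changes sign, and *Tgfbi* on day 3 is filled in every row.

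The gene counts ran from 1522668 to 2826735 per library (median 1935856). Neuronal markers were present in every library, the 12 summing to 6987 to 14730 CPM. The 7 striatal markers summed to 133.9 to 3368 CPM. The 8 hippocampal markers summed on day 7 to 613.9 to 739 CPM after MCAO and to 357.2 to 403.4 CPM in sham. Their control sums were 392.8 to 429 CPM. On day 7 the 8 choroid plexus and ependymal markers summed to 13.85 to 69.57 CPM after MCAO and 1.825 to 10.27 CPM in sham. In the control they reached 505.5 CPM. The 8 thalamic markers overlapped on day 7, at 321.9 to 542.4 CPM after MCAO and 327.8 to 421.4 CPM in sham. The late MCAO libraries differed among themselves in markers of myeloid cells. The 12 microglial and macrophage markers summed to 813.6, 1827, 3819, 2312 and 3340 CPM in day 3 MCAO libraries A to E, and to 337.3 to 426.1 CPM in their shams. On day 7 they summed to 1162, 1479, 5414, 1128 and 1591 CPM after MCAO and to 484.6 to 605.4 CPM in sham. Library A was the lowest on day 3 and libraries C and E the highest, in the same order as for *Tgfbi* and *Tgif1* at both ends, and library C was the highest on day 7. All 12 markers were called higher on day 3 and 10 on day 7. The 9 markers of monocytes and border macrophages, which reached 4179 CPM in day 7 library C, summed to 45.9 to 1012 CPM in the day 3 MCAO libraries and 21.5 to 30.9 CPM in their shams, with 4 called higher on day 3 and 2 on day 7. *Ly6c2* of that list was at 0 in the day 3 and day 7 shams. Of 10 fibroblast and meningeal markers 3 and 5 were called higher, with sums of 257.3 to 2848 CPM after MCAO and 1388 to 2316 CPM in sham on day 3, and of 1003 to 6445 CPM (again highest in library C) and 1751 to 1990 CPM on day 7. In the control this list summed to 1597 to 1988 CPM. Its members *Col1a1*, *Col1a2*, *Col3a1* and *Dcn* had control means of only 17.7, 32.2, 7.75 and 21.7 CPM. Other markers of the list therefore make up most of these sums, which are no measure of the collagens. Of 9 granulocyte markers 3 were called higher on day 3, with sums of 9.075 to 715.1 CPM after MCAO and 2.342 to 7.253 CPM in sham on day 3. Among 10 endothelial markers 3 were called higher on day 3, with sums of 317.1 to 807 CPM after MCAO and 335.4 to 366.8 CPM in sham. Among 10 astrocyte markers 2 were called higher on day 3 and 3 on day 7, and of 12 neuronal markers 1 and 2 were called lower. Of 5 markers of blood, 3 were called higher on day 3, with sums of 97.69 to 478.4 CPM after MCAO and 12.18 to 23.57 CPM in sham, and 4 on day 7, with sums of 34.62 to 724.6 CPM and 9.799 to 49.21 CPM. Of these, *Alas2* was at 0 in the day 3 shams. Of 9 markers of pericytes and smooth muscle, 2 and 1 were called higher, with sums of 136.1 to 317.3 CPM after MCAO and 141.5 to 162.5 CPM in sham on day 3 and of 140.2 to 366.5 CPM and 140 to 174.4 CPM on day 7. The part of these cells and brain regions in the values of the 10 genes was not tested. Without day 3 MCAO library A and day 7 MCAO library C, the day 3 log2 fold changes of *Tgfb1*, *Tgif1* and *Tgfbi* were 3.88, 3.50 and 4.59 and all were called, and on day 7 *Tgfbr2* was 1.90 (adjusted p = 0.00349) and called while *Tgif1* was 3.03 (adjusted p = 0.0223) and not called.

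**Figure D4:**
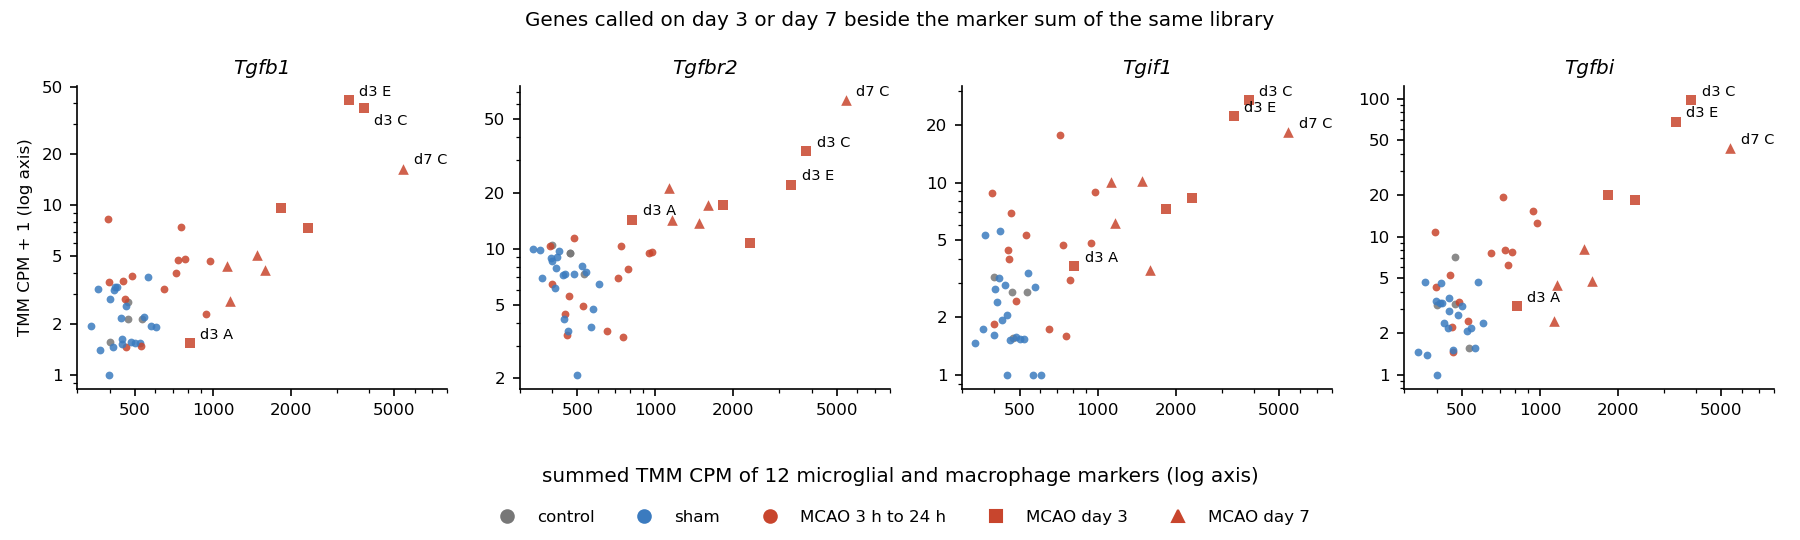
Called genes beside myeloid markers: TMM CPM + 1 of 4 genes (y axis, log) against the summed CPM of 12 microglial and macrophage markers in the same library (x axis, log), 1 symbol per library, with squares for day 3 and triangles for day 7 after MCAO. Day 3 libraries C and E and day 7 library C lie at the upper right in all 4 panels, and day 3 library A (d3 A) has the lowest marker sum of the late MCAO libraries, 813.6 CPM.

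The other genes of the pathway were counted in 8 lists. Of 14 genes that hold TGF-β latent or release it, 2 were called higher on day 3 and 1 on day 7, where 4.02% and 3.5% of all genes were called in either direction. At these shares, a single call in a list of 12 to 14 genes is no result about the list. *Thbs1*, thrombospondin 1, which activates latent TGF-β, was at 39.5 ± 45.2 CPM after MCAO and 0.583 ± 0.885 CPM in sham on day 3 (log2 fold change 6.02, SE 1.16, edgeR adjusted p = 2.32e-04). *Mmp14*, a membrane-bound matrix protease, rose on both days (log2 fold changes 1.79 and 2.79, edgeR adjusted p = 0.00802 and 2.08e-04). Of 12 further receptors and co-receptors 1 was called on day 3, the endothelial co-receptor *Eng* (1.71, adjusted p = 0.0032), and 0 on day 7 by edgeR, where DESeq2 called 1 and 5 had an unadjusted p under 0.05. Among 12 extracellular antagonists, 1 was called on day 3 and 3 on day 7. These were the proteoglycan decorin, *Dcn* (2.25 on day 3 and 2.43 on day 7), which is also in the fibroblast and meningeal marker list, and on day 7 also biglycan, *Bgn* (2.68), and follistatin-like 1, *Fstl1* (1.65). Of 13 other ligands of the superfamily edgeR and DESeq2 called 0 on either late day, and 3 on day 3 and 2 on day 7 had an unadjusted p under 0.05. Of 6 other SMADs edgeR called 0 on either day, where DESeq2 called 0 and 1 and 2 on each day had an unadjusted p under 0.05. Of 14 intracellular regulators 1 fell, the SMAD anchor *Zfyve9*, by 0.75 on day 7 (SE 0.15, edgeR adjusted p = 9.59e-04), with 166.2 ± 9.16 CPM in sham and 98.9 ± 16.1 CPM after MCAO.

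Among target genes of TGF-β, *Timp1*, *Lox* and the fibrillar collagens were among those with the largest called differences. Of 25 tested, 2 were called at 12 h, 1 at 24 h, 7 on day 3 and 6 on day 7, all higher, where 0.411%, 0.0901%, 4.02% and 3.5% of all genes were called. At 3 h edgeR called 0, where DESeq2 called 1 and 9 had an unadjusted p under 0.05. The list medians from 3 h to day 7 were 0.50, 0.50, 0.48, 0.79 and 1.101, beside medians over all genes of 0.00, 0.01, 0.02, 0.01 and 0.06. *Timp1*, an inhibitor of matrix proteases, was called at 12 h (log2 fold change 4.28), 24 h (4.60) and day 3 (5.83). Also called on day 3 were *Lox*, which crosslinks collagen (4.52), and the fibrillar collagen *Col3a1* (3.93). On day 7 the largest were *Col3a1* (6.74), *Col1a1* (5.26), *Lox* (5.16) and *Col1a2* (4.46), each with an SD above its mean after MCAO (*Col3a1* 279.5 ± 551.8 CPM, n = 5). Of this list, 3 collagens are also in the fibroblast list above, and *Acta2* and *Tagln* in that of pericytes and smooth muscle. Of 12 genes that microglia need TGF-β to express, 1 fell at 12 h, the purinergic receptor *P2ry12*, by 1.78 (SE 0.39, edgeR adjusted p = 0.00927), and edgeR and DESeq2 called 0 at 3 h and 24 h, with an unadjusted p under 0.05 for 1 and 5. On day 3, 7 were called higher, led by *Fcrls* (3.65), *Olfml3* (3.22) and the growth factor receptor *Csf1r* (2.26), and on day 7, 5 were. Late against early, 10 of the 12 were called higher, where 1.12% of all genes were called, with *Fcrls* at 2.84. *Csf1r* and *Cx3cr1* are among the genes also in the marker list of microglia and macrophages. Without day 3 library A and day 7 library C, the called target genes numbered 10 on day 3 and 4 on day 7, the latency genes 6 and 1, the antagonists 3 and 0, and the microglial genes 10 and 2. Each list is given by its counts, which carry no test of the list.

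**Figure D5:**
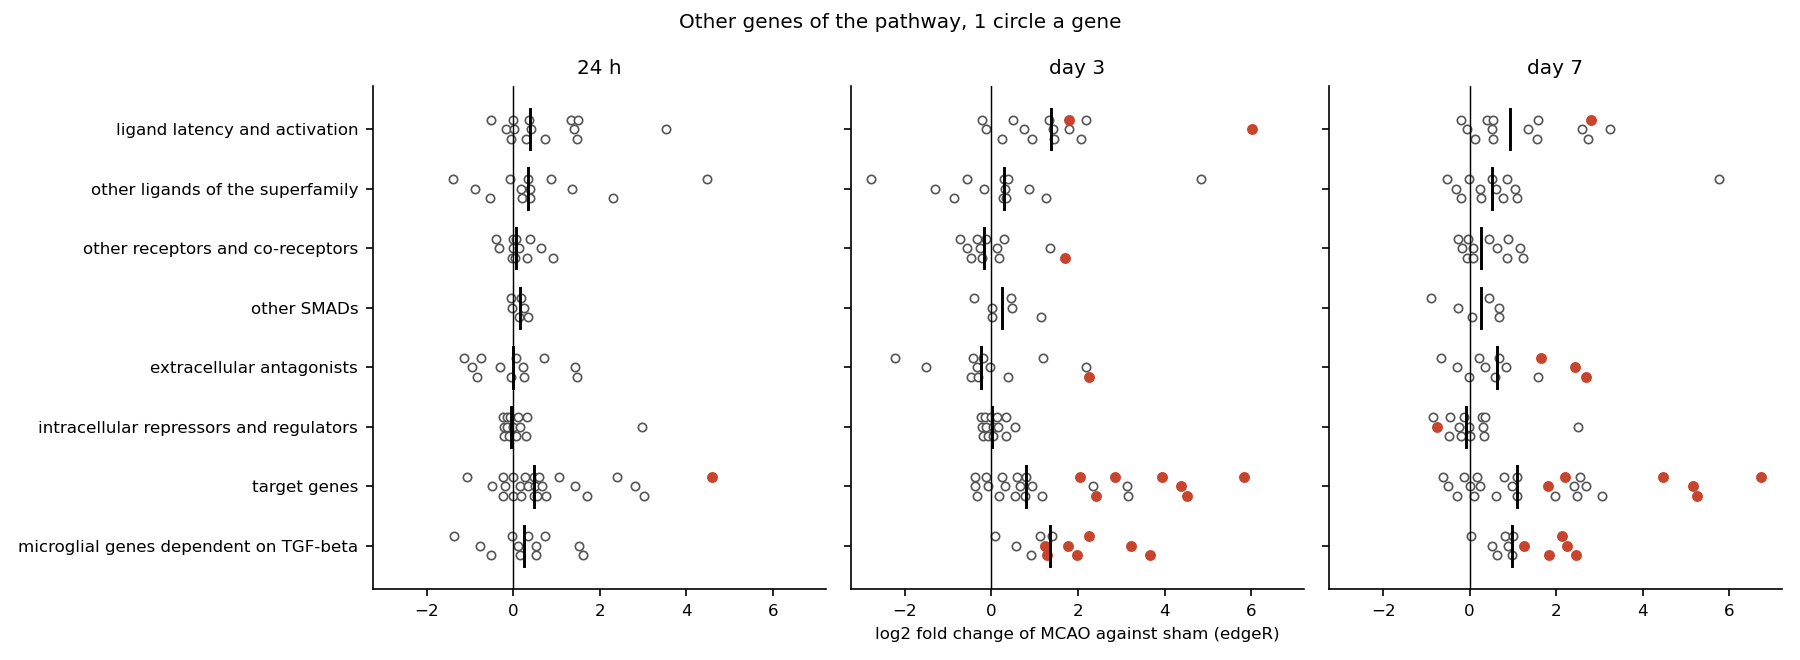
Other genes of the pathway by list: log2 fold change of MCAO against sham (x axis) at 24 h, day 3 and day 7, 1 circle per gene, filled where called, with a black bar at the list median. The filled circles lie to the right, except *Zfyve9* on day 7 at −0.75, and most are target genes or microglial genes.

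As a description of which genes shared a pattern, the Pearson correlation of log2(CPM + 1) over the 48 libraries was computed among 11739 genes with a mean of at least 5 CPM. The 48 points share their groups, controls and myeloid marker levels, so these values carry no test. The genes most like *Tgfbi* were *Arg1*, arginase 1 (0.88), *Bin2* (0.87) and *Fcer1g*, an Fc receptor chain (0.87). Those most like *Tgfbr2* were *Mpeg1*, a macrophage perforin (0.84), the lysosomal protease *Ctsl* (0.84) and *Col1a2* (0.83). *Tgfbr1* was closest to *Qk*, an RNA-binding protein (0.78), and *Itm2b* (0.77). The other members with a mean of at least 5 CPM had weaker partners: *Tgfb3* with *Akt1* (0.70), *Tgfb2* with *Tmem255a* (0.68), *Smad3* with the clock gene *Cry1* (0.67) and *Smad7* with *Etv3* (0.56). *Fcer1g* belongs to the microglial and macrophage markers above. *Tgfb1*, *Tgif1* and *Bambi* were below that mean and were not compared.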

How the data were processed

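The authors deposited raw read counts per gene for 48 libraries of mouse brain tissue, 1 count file per library. According to the methods, RNA was made into QuantSeq 3′ libraries with ERCC spike-in RNA, reads were trimmed with Trimmomatic, ribosomal and mitochondrial reads were removed with SortMeRNA, and the rest were aligned to GRCm38 with STAR 2.5.2b and counted over Gencode vM8 with htseq-count in union mode. The strand setting is not given in the sources used here. The normalised matrix was not used. The 10 members and all gene and marker lists were chosen with earlier results of these data known.

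Gencode vM21 gave the coordinates and a symbol for 46488 of 46983 genes. Alignments assigned to no gene (median 23.5% without a feature, 0.400% ambiguous, 33.5% not unique) and the spike-ins (3.71% to 5.97% of counts) stayed out of library sizes. No 2 libraries held identical values. Genes with more than 10 reads in total (19970) were normalised by TMM and fitted over all 11 groups with the quasi-likelihood test of edgeR 4.0.16 in R 4.3.3, giving 20 comparisons. Calls needed both a p under 0.01 after Benjamini-Hochberg adjustment over all tested genes and a log2 fold change beyond ±0.58. The biological coefficient of variation was 24.87% in common. On counts simulated for the day 3 comparison over 19970 genes, 32% of 50 genes with a log2 change of 1 were called, 92% at 1.5 and 100% at 2. The changed genes were drawn from those with a mean of at least 5 CPM. Their spread was set from a fixed value and the mean count, not from each gene's own spread. *Tgfb1*, *Tgif1* and *Bambi* lay below that mean, so these rates do not cover them.

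Alternatives were DESeq2 size factors, DESeq2 1.42.0, filterByExpr, no filter, spike-in scaling, the replicate letter as a block, a fit of only the groups compared, and leaving out each of the 48 libraries. Leaving out day 3 MCAO library A and day 7 MCAO library C together was chosen after seeing the data. Pooled ratios set the summed reads of a group over its summed TMM-scaled library sizes against those of the other group. They carry exact 95% intervals for counting error. Likeness between genes used log2(CPM + 1). All 10 members were named, and genes of the other lists only where called, at most 4 a list with the largest fold changes first. Some genes that this rule or the likeness would name are not reported here. Promoters were taken from RefSeq on GRCm38.p6, and windows of 7 of the 10 members were kept. Figures were drawn with matplotlib 3.10.9.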

Additional observations from a re-analysis of the deposited data

Results flagged for a closer look

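In 8 of 110 sets of a gene in a group, 1 library lay far from the others on the log2(CPM + 1) scale by Dixon's test at its 95% critical value, which chance does for about 1 set in 20. *Tgfbr2* in day 7 MCAO library C was 62.47 CPM where the other 4 had 12.7 to 20.2 CPM. That library also had the highest summed CPM of the myeloid and of the fibroblast and meningeal marker lists in its group. *Tgfb1* in 24 h MCAO library A was 1.275 CPM where the others had 3.67 to 3.81. *Tgfb3* in 3 h sham library D was 6.541 CPM where the others had 14.3 to 15.4. *Smad3* was 124.3 CPM in day 3 sham library C (others 82.9 to 86.7) and 107.5 CPM in day 3 MCAO library E (others 76.4 to 81.7). *Smad7* was 14.09 CPM in 12 h MCAO library A (others 21.8 to 24.5), 16.55 CPM in day 3 MCAO library A (others 23.9 to 25.6) and 28.18 CPM in day 7 MCAO library E (others 21.6 to 23.1).

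The MCAO against sham difference of *Tgfbr2* on day 3 and day 7 exceeded that at 3 h and 12 h by 2.2337 on the log2 scale (edgeR adjusted p = 0.00214), and leaving out any 1 library gave 1.90 to 2.43, called each time.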

How the results depend on the processing

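On day 7 against sham, where 2 members were called, DESeq2, filterByExpr and no filter each called 4, the fit of only the groups compared called 0, and the fit without day 3 MCAO library A and day 7 MCAO library C called 1. Leaving out 1 library gave 1 (without MCAO library C, sham library A or sham library D) to 3. On day 3 against sham, where 3 were called, the fit of only the groups compared called 1, and leaving out 1 library gave 2 to 3. Against the control, the 3 called on day 3 became 0 when only the groups compared were fitted, and the 0 on day 7 became 1 with DESeq2, with no filter and without MCAO library B (range 0 to 1). Of 880 member differences under the alternatives other than leaving out 1 library, 859 stayed on their side of the threshold, 11 lost a call, 10 gained one and 0 called values changed sign. A sign turned for 26 uncalled differences, the largest of 0.2873. Of 1240 fits that left out 1 library, 16 lost a call and 7 gained one. Most differences in both totals were uncalled in the main fit, so few of them had a call to lose. That fit had called 3 members on day 3 and 2 on day 7 against sham, 3 on day 3 against the control and 1 late against early. The cause of the lost and gained calls and of the turned signs was not tested.

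Same-lettered MCAO and sham libraries did not deviate together (correlations of −0.261 to 0.148, 5 of 20 pairs over 0.1), so the letters were not taken to pair them. With the letter as a block, *Tgif1* on day 3 was 2.84 against sham (adjusted p = 0.0109) and 2.60 against the control (0.0287), both no longer called, and no other member call changed.

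Over all genes, 802 were called on day 3 against sham (750 higher, 52 lower), 441 without MCAO library C, 1353 without library A, 339 with only the groups compared and 594 under spike-in scaling (463 higher, 131 lower), which moved the median log2 fold change of all genes from 0.01 to −0.22. On day 7 they were 698 (413 higher, 285 lower), 241 without sham library D, 302 with only the groups compared, 1096 with DESeq2 and 489 under spike-in scaling (403 higher, 86 lower). Depth limits 7 of the 10 members, whose median was at most 23 reads a library, and folds against libraries with 1 to 4 reads are imprecise.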
